A study of Rattus norvegicus with 6 samples.

Results

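Pleiotrophin (Ptn) and midkine (Mdk) are the members of a small family of secreted, heparin-binding growth factors, and the syndecans (Sdc1, Sdc2, Sdc3 and Sdc4) and the receptor phosphatase Ptprz1 are cell surface proteins that bind them. These 7 genes were followed on 6 Affymetrix 3' arrays of rat mammospheres, which are spheres that dissociated mammary cells form in suspension when they cannot attach to the dish. All probe sets that the platform annotation assigns to one of these genes alone were taken, 13 in all, and the brightest by its mean over the 6 arrays, chosen by that value, stood for the gene. All 7 genes passed the filter on dim signal and were among 10424 genes tested. Ptn was already known to be among the larger rises in these data when the set was drawn up, so its values describe it and are no independent support.

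All donor animals were Sprague Dawley females. The hCG group (3 arrays, numbered 5, 6 and 7) had received recombinant human chorionic gonadotropin, the placental hormone that acts on the ovary, by daily intraperitoneal injection at 100 IU per day for 21 days from 55 days of age. The Control group (3 arrays, also numbered 5, 6 and 7) had received phosphate buffered saline on the same schedule. In both groups glands 4 and 5 were removed 21 days after the last injection, and single cells enriched for epithelium were cultured over 7 days in a medium with EGF, basic FGF and heparin. Spheres caught on a strainer gave the RNA, which was amplified in a 2-cycle labelling. The design text gives 3 animals per group, but nothing ties an array to an animal, so each p-value reflects only how these samples vary, and that variation may be technical. The spheres were not sorted by cell type.

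Ptn and Mdk bind the sulfated sugar chains that proteoglycans carry. Syndecans carry mainly heparan sulfate on a single-pass core protein, and Ptprz1 carries chondroitin sulfate. Binding of Ptn to Ptprz1 is known to switch off its phosphatase, which leaves substrates such as β-catenin more phosphorylated, and in nerve cells syndecan-3 serves Ptn as a receptor for neurite outgrowth. Syndecan-1 is the abundant syndecan of epithelia, syndecan-2 is known from mesenchymal and endothelial cells, and syndecan-4 sits in focal adhesions. In the mammary gland Sdc1 is known for its part in Wnt signalling and ductal growth.

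The stretches before the start of Ptn and of the syndecans Sdc1 and Sdc4 are shown because Ptn differed between the groups and these bright syndecans did not pass the test. Sequences were taken from the RefSeq table of assembly GRCr8, which held 4 of the 7 genes (Ptn, Sdc1, Sdc3 and Sdc4), and cover the 250 bases before the listed start. The Ptn stretch lies at chr4:66342333-66342582 on the minus strand, that of Sdc1 at chr6:37281791-37282040 on the plus strand and that of Sdc4 at chr3:173592924-173593173 on the minus strand. Capitals mark TGAGTCA (the AP-1 motif), GGGCGG (the GC box of Sp1) and TATAA, each searched on both strands.
Ptn: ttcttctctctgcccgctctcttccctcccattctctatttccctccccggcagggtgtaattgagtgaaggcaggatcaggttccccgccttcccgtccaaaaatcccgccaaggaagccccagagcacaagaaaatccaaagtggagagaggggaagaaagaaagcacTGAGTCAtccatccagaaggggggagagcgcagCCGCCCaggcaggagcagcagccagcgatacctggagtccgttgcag
Sdc1: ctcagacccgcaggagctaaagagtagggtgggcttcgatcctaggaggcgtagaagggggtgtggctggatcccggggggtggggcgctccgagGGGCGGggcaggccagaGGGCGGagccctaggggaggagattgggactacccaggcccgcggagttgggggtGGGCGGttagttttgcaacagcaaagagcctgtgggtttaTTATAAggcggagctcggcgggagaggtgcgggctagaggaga
Sdc4: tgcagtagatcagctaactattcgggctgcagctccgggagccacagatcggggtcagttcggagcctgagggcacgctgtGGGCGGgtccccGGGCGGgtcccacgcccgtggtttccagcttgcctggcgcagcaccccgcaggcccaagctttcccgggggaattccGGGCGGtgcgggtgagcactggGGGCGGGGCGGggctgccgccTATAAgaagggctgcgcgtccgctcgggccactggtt

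The Ptn stretch held 1 TGAGTCA, which begins 80 bases before the start, and 1 GC box at 47 bases. TGAGTCA stood in 4.05% of the 33469 stretches of this length in the table and in none of the 3 syndecan stretches. Sdc1 held 3 GC boxes, Sdc3 4 and Sdc4 5, the last counting a pair that overlap by a single base, while 30.5% of all stretches held at least 1. TATAA stood 37 bases before the start of Sdc4 and, read on both strands of the same letters, at 43 and 42 bases before that of Sdc1, against 24.0% of all stretches with a match. The spaced motif TTCNNNGAA (STAT, in 7.67% of all stretches) and CACGTG (the E-box, in 5.59%) matched in none of the 4. The share of G and C was 57.6% for Ptn, 65.2% for Sdc1, 70.0% for Sdc4 and 80.0% for Sdc3, all above the median of 51.2% over the table. These matches describe letters and were not linked to any binding measurement.

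The values are log2 expression as deposited by the authors, and array medians lay between 3.44 and 3.48. In the whole fit, 190 of 10424 genes (1.82%) were called by limma at a Benjamini-Hochberg adjusted p under 0.05. Of all tested genes, 1.01% were called higher, and 24.1% had an unadjusted p under 0.05. Groups did not overlap in 31.6% of genes. Calls rested on most arrays together: limma called 0 genes without hCG 5, hCG 7, Control 5 or Control 6 (1649, 1455, 1950 and 1931 genes at an unadjusted p under 0.05), 338 without hCG 6 and 584 without Control 7. Bacterial poly-A transcripts, added to the RNA before labelling, averaged 3.97, 4.49 and 3.97 on hCG 5, 6 and 7, against 4.97, 5.05 and 5.21 on Control 5, 6 and 7. A further measure of array quality was the log2 signal of Actb at its 3' probe set minus that at its 5' probe set. This difference was highest on Control 7, at 2.18, and lay between 1.46 (Control 6) and 1.75 (hCG 6) on the other arrays. Its part in the results that turned on Control 7 was not tested. Epithelial markers were present, with 9 of 10 luminal and 8 of 10 basal markers above the filter on dim signal, while the hormone-sensing markers Esr1, Pgr, Prlr and Foxa1 lay below it. Fibroblast markers were bright, with 8 of 8 above the filter and a mean log2 value of 10.00 to 10.32 over the arrays. Tested luminal markers averaged 5.17 to 6.53 and basal ones 4.30 to 5.64. Probe sets differ in brightness, so these levels do not give shares of cells. The filter left out the dimmest 40% of probe sets, below a mean log2 value of 2.67.

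Of the 2 growth factors, Ptn was higher in hCG spheres by about 4-fold and Mdk had a smaller difference with overlapping groups, while the 4 syndecans and Ptprz1 showed no called change. Ptn read 5.76, 4.55 and 5.19 on hCG 5, 6 and 7, against 2.59, 2.99 and 3.63 on Control 5, 6 and 7. The lowest hCG array, hCG 6, lay above the highest Control array, Control 7. The means were 5.16 ± 0.60 for hCG and 3.07 ± 0.52 for Control (SD, n = 3 each), a log2 change of 2.09 (SE 0.36) or 4.26-fold, with a 95% interval of 2.37 to 7.69-fold. By limma's test over all genes this gave an adjusted p of 0.0445. Control 5 lay under the filter level and Control 6 only a little above it, so the fold starts at dim signal. The platform annotation gives Ptn a single probe set, so no further probe set could be set beside it. In these unsorted spheres, more cells that make Ptn and more of it per cell cannot be told apart.

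**Figure D1:**
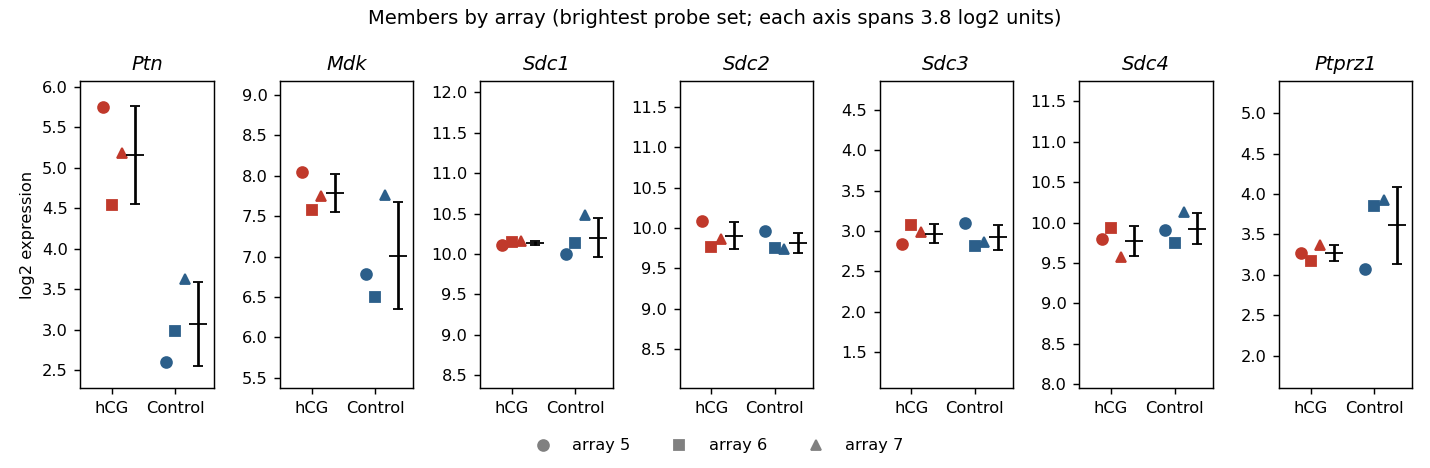
Log2 expression of the 7 genes by array, with hCG arrays in red on the left and Control arrays in blue on the right of each panel, marker shape showing the array number, and black bars giving mean ± SD (n = 3). Ptn is the single panel in which the groups do not overlap, with hCG arrays between 4.55 and 5.76 and Control arrays between 2.59 and 3.63.

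The Ptn call depended on which arrays were used, though its direction did not. With 1 array left out in turn its log2 change lay between 1.80 (without hCG 5) and 2.40 (without hCG 6). It passed without hCG 6 (adjusted p = 0.0302) and without Control 7 (0.0347). It did not pass without hCG 5 (adjusted p = 0.118), hCG 7 (0.208), Control 5 (0.106) or Control 6 (0.141), where no gene passed. The poly-A level was lower on all hCG arrays than on all Control arrays. Within the groups its order ran both ways against Ptn: hCG 6 had the highest poly-A level and the lowest Ptn value of its group, whereas Control 7 had the highest of both and Control 5 the lowest of both in theirs. Its part in the result was not tested.

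Mdk, the second growth factor and known from development and repair, read 8.04, 7.57 and 7.75 on hCG 5, 6 and 7, against 6.78, 6.503 and 7.76 on Control 5, 6 and 7. Control 5 and Control 6 lay below all hCG arrays, whereas Control 7 lay within the hCG range. The means were 7.79 ± 0.24 for hCG and 7.01 ± 0.66 for Control (SD, n = 3 each). The log2 change was 0.77 (SE 0.32, 1.71-fold, 95% interval 1.02 to 2.87-fold), which did not pass (adjusted p = 0.197 by limma's test over all genes). The value turned on Control 7: without that array the change was 1.15 (SE 0.16) and passed (adjusted p = 0.0327), and without Control 6 it was 0.52 (adjusted p = 0.396). Array weights, which count arrays that stand apart for less, gave 1.00 (adjusted p = 0.0123). Of all tested genes, 25.5% passed with array weights and 5.6% without Control 7, against 1.82% in the main fit, so neither pass was particular to Mdk.

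The difference between both growth factors was also taken on each array, where only its shift between groups is read because probe sets differ in brightness. Ptn minus Mdk was -2.29, -3.03 and -2.56 on hCG 5, 6 and 7, against -4.18, -3.52 and -4.13 on Control 5, 6 and 7. All hCG arrays lay above all Control arrays, with a shift of 1.32 (exact two-sided permutation p = 0.1, the smallest that 3 against 3 allows, and 0.7 after adjustment over the 7 pairs compared). As the rise of Ptn was known beforehand, this separation is no independent support for an unequal change. Control 7, the Control array of highest Mdk, was also the Control array of highest Ptn.

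**Figure D2:**
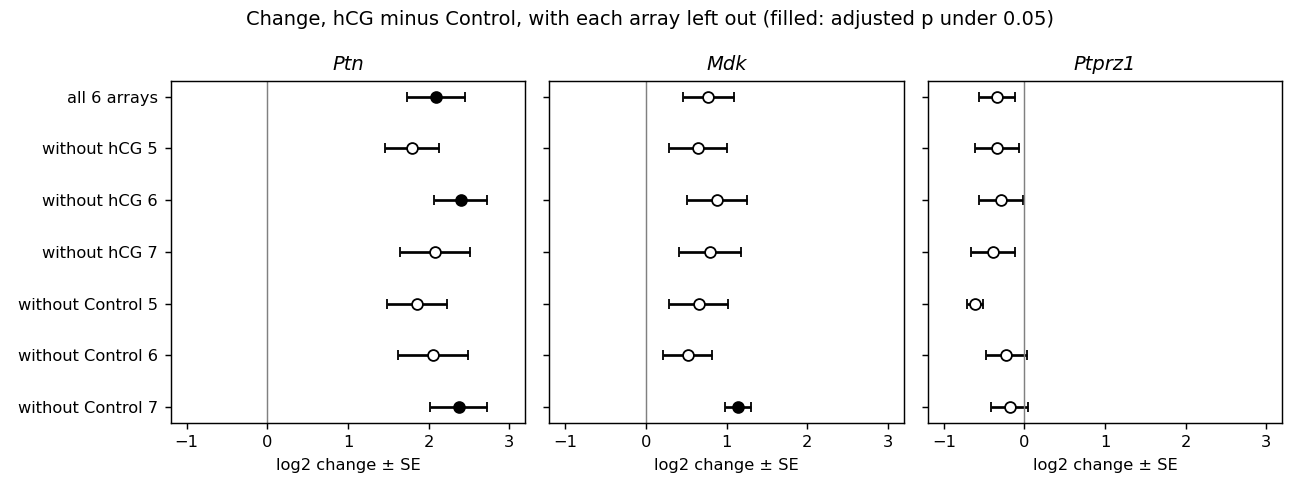
Log2 change, hCG minus Control, with its SE for Ptn, Mdk and Ptprz1 with all 6 arrays and with each array left out, where filled points passed at adjusted p under 0.05. Ptn stays between 1.80 and 2.40 but is filled in only 3 of the 7 fits, Mdk is filled only without Control 7, and Ptprz1 in none.

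Among the syndecans, Sdc1 read 10.11, 10.14 and 10.16 on hCG 5, 6 and 7, against 10.00, 10.13 and 10.48 on Control 5, 6 and 7. The hCG arrays were almost level and lay inside the Control range, which Control 7 widened. The log2 change was -0.06 (SE 0.13, adjusted p = 0.798), with a 95% interval of 0.774 to 1.18-fold. The second probe set of Sdc1 showed the same picture, with 8.94, 8.97 and 8.95 on hCG arrays and 8.93, 9.07 and 9.33 on Control arrays, a change of -0.16 (SE 0.11). Without Control 7 the brighter probe set had a change of 0.07 in place of -0.06, so no direction was settled.

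Sdc4, the focal adhesion syndecan, read 9.80, 9.94 and 9.58 on hCG 5, 6 and 7, against 9.90, 9.75 and 10.13 on Control 5, 6 and 7. The groups overlapped, with hCG 7 lowest and Control 7 highest of all arrays. The log2 change was -0.16 (SE 0.13, adjusted p = 0.522), and the 95% interval reached from 0.719 to 1.12-fold.

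Sdc2 was measured by 3 probe sets above the filter, and they differed in sign. The brightest read 10.09, 9.77 and 9.86 on hCG 5, 6 and 7, against 9.96, 9.75 and 9.75 on Control 5, 6 and 7, a log2 change of 0.09 (SE 0.11, adjusted p = 0.676, 95% interval 0.881 to 1.28-fold). The other pair gave changes of -0.10 (SE 0.10) and -0.10 (SE 0.09). None of the 3 separated the groups, and each change was no larger than about its SE.

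Sdc3, the neural syndecan, was dim. Its brightest probe set read 2.84, 3.07 and 2.99 on hCG 5, 6 and 7, against 3.10, 2.81 and 2.86 on Control 5, 6 and 7, just above the filter level of 2.67. The change was 0.04 (SE 0.11, adjusted p = 0.845, 95% interval 0.860 to 1.23-fold). Its other probe sets averaged 2.35 and 1.79 over the 6 arrays, below the filter, with changes of 0.02 and -0.04. At such signal a change in Sdc3 may not be detectable.

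All 9 syndecan probe sets overlapped between the groups, with changes from -0.16 to 0.09. The 6 pairs of syndecans were also compared within arrays. The largest shift was that of Sdc2 minus Sdc4 at 0.24 (exact two-sided permutation p = 0.3, adjusted p = 0.817 over the 7 pairs), and all 6 pairs overlapped between groups. For Sdc1, Sdc2 and Sdc4 the intervals leave out a rise of more than 1.28-fold and a fall to less than 0.719-fold at the measured probe sets.

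Ptprz1, the chondroitin sulfate bearing receptor phosphatase, read 3.27, 3.17 and 3.37 on hCG 5, 6 and 7, against 3.07, 3.85 and 3.93 on Control 5, 6 and 7. Control 6 and Control 7 lay above the hCG arrays and Control 5 lay below them. The log2 change was -0.34 (SE 0.23, adjusted p = 0.399, 95% interval 0.545 to 1.14-fold). Without Control 5 it was -0.62 (SE 0.10) with an adjusted p of 0.0885, in a fit where no gene passed, whereas it was -0.23 without Control 6, -0.18 without Control 7 and -0.15 with array weights. Its second probe set averaged 1.29 over the 6 arrays, below the filter, with a change of -0.08 (SE 0.09).

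**Figure D3:**
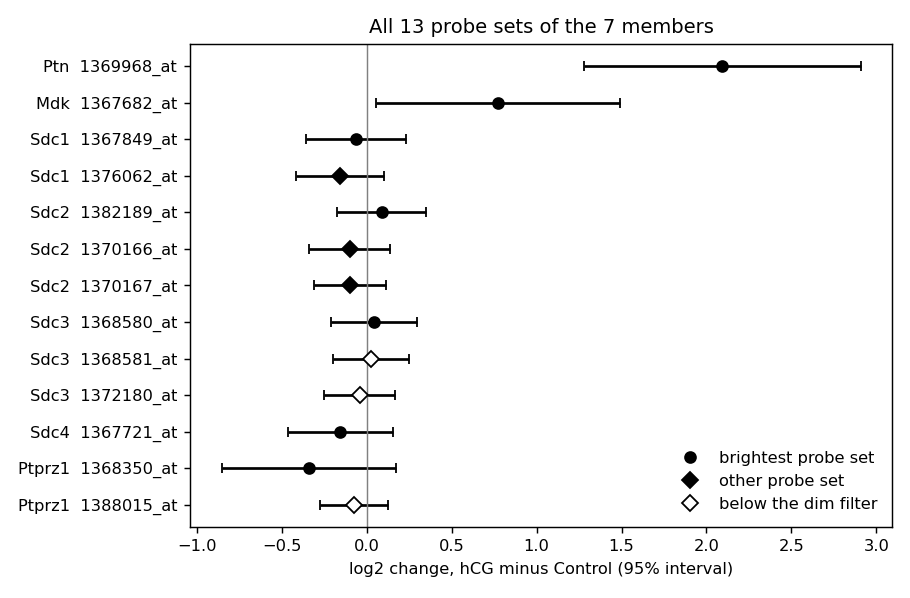
Log2 change, hCG minus Control, with 95% intervals for all 13 probe sets of the 7 genes, from a fit with no filter on dim signal, with circles for the brightest probe set of a gene, diamonds for the others and open symbols for those below the filter. The Ptn interval lies farthest from 0, the Mdk interval reaches almost to 0, and the 9 syndecan and 2 Ptprz1 intervals include 0.

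Of the 7 genes, 1 was called, and 1 of 7 did not overlap between groups, against 1.82% and 31.6% of all tested genes. Since Ptn's rise was known beforehand, nothing is read from this count. The median log2 change of the 7 was 0.04, against 0.03 over all tested genes, and 4 of 7 lay above 0, against 55.8% of all genes.

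Other genes of this system were read from 9 lists of 107 genes, of which 77 were tested: receptors, proteoglycan core proteins, the enzymes that make and trim their sugar chains, and the partners and proteases of syndecans. None of the 77 passed limma's test over all genes (0% against 1.82%), while 24 had an unadjusted p under 0.05, or 31.2% against 24.1% of all genes. Groups did not overlap in 27 of them (35.1%, against 31.6%). The median change was -0.04. The count of called genes varied with the settings, with 4 (5.19%, against 1.88% of all genes) called when dim probe sets were kept, 7 (9.09%, against 5.6%) without Control 7 and 26 (33.8%, against 25.5%) with array weights. The 7 without Control 7 were Actn4, Cd44, Hs3st1, Mmp2 and Prkca, all lower, and Col18a1 and Csgalnact1, both higher.

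Among 11 further receptors of Ptn and Mdk, 4 lay above 0 and the median was -0.18. The receptor tyrosine kinase Alk, proposed as a receptor for both factors, averaged 4.39 ± 0.25 on hCG and 4.23 ± 0.23 on Control arrays, with a change of 0.16 (SE 0.17, adjusted p = 0.596). Lrp1 and Lrp6, receptors of the LDL receptor family, had changes of -0.31 and -0.48 (adjusted p = 0.154 and 0.107), with all hCG arrays below all Control arrays. The integrin subunit Itga6 differed by 0.88 (SE 0.28, adjusted p = 0.125), without overlap, and is itself one of the basal markers described further on. Itgb3, another integrin subunit, differed by -0.74 (SE 0.30, adjusted p = 0.192), with overlapping groups. Single arrays moved some of these values: without hCG 5 Itgb3 was -0.41 and Lrp1 -0.20, and without Control 5 Itga6 was 0.58. Nrp1 and nucleolin (Ncl), both described as binding these factors, had changes of -0.01 and 0.22 (adjusted p = 0.957 and 0.288).

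Downstream of Ptprz1, 9 substrates and kinases were tested, with a median of 0.03. Magi3, a scaffold protein that Ptprz1 dephosphorylates, averaged 6.00 ± 0.10 on hCG and 5.54 ± 0.13 on Control arrays, without overlap, at a change of 0.46 (SE 0.10, adjusted p = 0.0639). β-catenin (Ctnnb1) had a change of -0.11 and Git1 of -0.13 (adjusted p = 0.443 and 0.550). Without Control 7 these were -0.07 for Ctnnb1 and -0.02 for Git1. The kinase Fyn had one of 0.11 (adjusted p = 0.713). These are transcript levels and say nothing of phosphorylation.

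Other heparan sulfate core proteins had a median of 0.25 over 9 genes, 6 of them above 0. The basement membrane collagen Col18a1 had a change of 0.64 (SE 0.21), Gpc4 of 0.36 (SE 0.16) and Gpc1 of 0.30 (SE 0.11), the last pair being glypicans, which are held to the membrane by a lipid anchor (adjusted p = 0.140, 0.221 and 0.171). Cd44, the hyaluronan receptor, read 6.59, 7.21 and 6.88 on hCG arrays, against 7.86, 7.89 and 7.26 on Control arrays, thus lower on each, by -0.78 (SE 0.22, adjusted p = 0.107). Of the chondroitin sulfate core proteins only Vcan was bright enough to test, at a change of -0.25 (SE 0.18, adjusted p = 0.431), which ran from -0.40 without hCG 6 to -0.11 without hCG 5. Gpc4 was 0.23 without hCG 6.

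Genes that build heparan sulfate chains had a median of -0.10 over 9 genes. Ext2, part of the chain polymerase, had a change of 0.39 (SE 0.11), B3gat3, which completes the linker to the core protein, of -0.45 (SE 0.15), Extl3 of -0.32 (SE 0.14) and B3galt6 of -0.21 (SE 0.09), with adjusted p from 0.107 to 0.216. Without Control 7 B3gat3 was -0.30 and Extl3 -0.17. Chain modifying genes had a median of -0.03 over 9 genes. Hs3st1, which adds the sulfate that lets the chain bind antithrombin, read 5.85, 6.94 and 6.05 on hCG arrays, against 8.07, 8.22 and 7.21 on Control arrays. Its hCG arrays all lay below its Control arrays, at a change of -1.55 (SE 0.36, adjusted p = 0.0727), the largest in size among the tested genes of heparan sulfate synthesis and modification. It passed without hCG 6 (-1.88, adjusted p = 0.0415) and without Control 7 (-1.87, adjusted p = 0.0421). Glce, the epimerase that makes iduronic acid, differed by 0.42 (SE 0.09, adjusted p = 0.0678). The extracellular sulfatase Sulf1 differed by 0.55 (SE 0.24, adjusted p = 0.213), or 0.33 as the mean of its probe sets. Hs6st1, a 6-O-sulfotransferase, had one of 0.22 (adjusted p = 0.319), or 0.34 without hCG 6.

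Chondroitin sulfate synthesis genes had a median change of 0.05 over 10 genes, none of them called. Csgalnact1, which starts the chain, averaged 4.67 ± 0.06 on hCG and 4.21 ± 0.08 on Control arrays, a change of 0.45 (SE 0.08) that just missed the threshold (adjusted p = 0.05004). As the mean of its probe sets it was 0.26 (adjusted p = 0.107). The sulfotransferase gene Chst12 differed by -0.58 (SE 0.11, adjusted p = 0.0543), without overlap. The polymerizing factor Chpf differed by -0.65 (SE 0.16, adjusted p = 0.0869). The epimerase-like Dsel differed by -0.53 (SE 0.18, adjusted p = 0.146).

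Cytoplasmic partners of syndecans had 1 of 11 genes above 0 and a median of -0.09. The actin crosslinker Actn4, which links syndecan-4 to the cytoskeleton, averaged 7.55 ± 0.06 on hCG and 8.08 ± 0.25 on Control arrays, a change of -0.53 (SE 0.13, adjusted p = 0.0859). Pdcd6ip (ALIX), which works with the syndecan-binding syntenin in exosome formation, differed by -0.28 (SE 0.08, adjusted p = 0.0952), and the hCG arrays of both genes lay below the Control arrays. As the mean of its probe sets Pdcd6ip was -0.14. Prkca, the kinase that syndecan-4 activates, had one of -0.42 (SE 0.20), the scaffold Cask of -0.20 and syntenin itself (Sdcbp) of -0.09 (adjusted p = 0.266, 0.435 and 0.672). Without Control 5 Prkca was -0.21 and Cask -0.09, and without Control 7 they were -0.64 (adjusted p = 0.0496) and -0.35 (adjusted p = 0.0622). Proteases that can shed syndecans, with their inhibitor Timp3, had a median of -0.01 over 8 genes. Adamts1 differed by 0.68 (SE 0.12), just missing the threshold (adjusted p = 0.05004). The gelatinase Mmp2 differed by -0.46 (SE 0.09, adjusted p = 0.0529), and neither gene overlapped between groups. Mmp2 passed under 8 alternative settings and not under 8 others, and Adamts1 under 5 and not under 11. Timp3 had a change of 0.44 (SE 0.15, adjusted p = 0.147), or 0.29 without hCG 5. Mmp7, matrilysin, which sheds syndecan-1, read 3.14, 2.89 and 2.54 on hCG arrays, against 3.68, 4.58 and 6.05 on Control arrays, a change of -1.91 (SE 0.55, adjusted p = 0.109). Without Control 7, the highest array, the change of Mmp7 was -1.27.

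**Figure D4:**
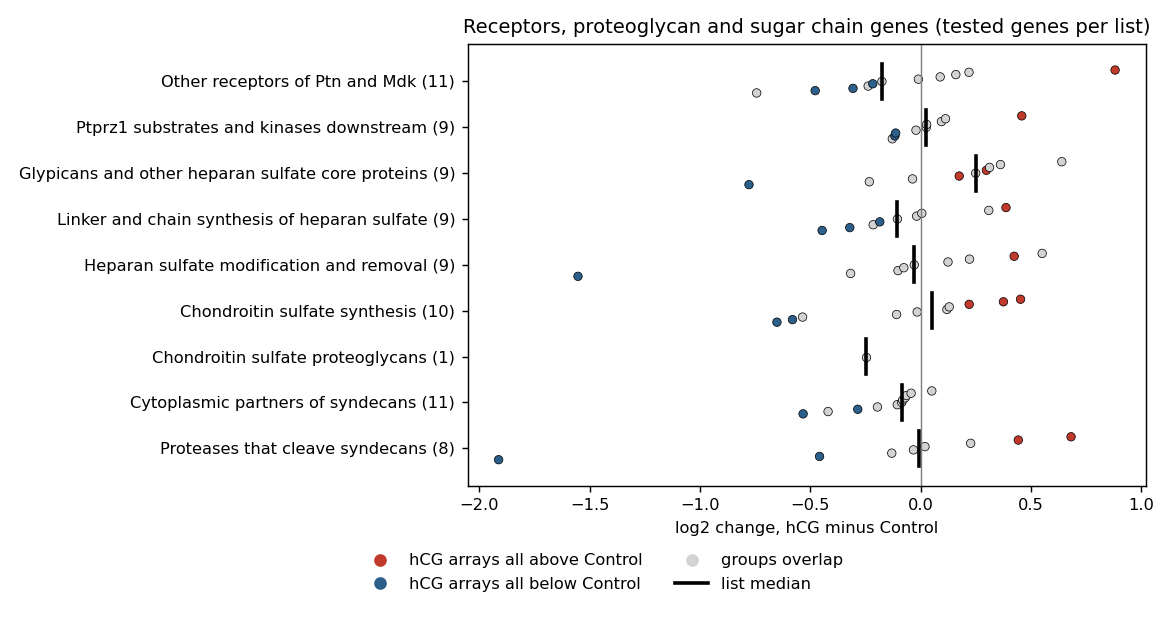
Log2 change, hCG minus Control, of each tested gene in the 9 lists, coloured by whether all hCG arrays lay above (red), below (blue) or within reach of (grey) the Control arrays, with black bars at list medians. List medians lie between -0.25 and 0.25, and the points farthest out are Mmp7 (-1.91) and Hs3st1 (-1.55) on the left and Itga6 (0.88) on the right.

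The genes whose pattern over the 6 arrays was most like that of Ptn were Cdk1, the kinase of mitotic entry (Pearson r = 0.998), Adamts9, a matrix protease (0.997), Zfp827 (0.997), Dnajc24 (0.996) and Elp2 (0.996). Cdk1 read 6.42, 5.47 and 5.96 on hCG 5, 6 and 7, against 4.12, 4.41 and 4.74 on Control 5, 6 and 7, thus with hCG 6 lowest of its group and Control 7 highest of its own, as in Ptn. Likeness over 6 arrays in 2 groups follows the group difference to a large part and is given without a test. Mdk had an r of 0.854 with Ptn and Sdc4 of -0.38. Nearest to Mdk were Chchd6 and Sri (both r = 0.997), in which Control 7 also lay among the hCG arrays. Nearest to Sdc1 were Uqcrc1 (0.996) and Tchp (0.991), to Sdc2 Ccdc24 (0.989) and Wdr90 (0.977), to Sdc3 Casq2 (0.986) and Nr2f2 (0.980), to Sdc4 Prkab1 (0.977) and Polr2k (0.975), and to Ptprz1 Pard6b (0.991) and Tmem30b (0.988).

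Marker lists of other cell types were read on the same arrays, as the mean log2 value of the tested markers relative to the Control mean. Endothelial markers (9 of 12 listed genes tested, 5 called higher) lay between 1.25 and 1.34 on hCG arrays, against -0.34 to 0.49 on Control arrays, with Tie1 and Vwf below the filter. Of the called ones Sox17 averaged 2.23 on Control arrays, under the filter level, and was tested through its hCG arrays. Basal markers (8 of 10 tested, 0 called) lay between 0.57 and 0.74 on hCG arrays, against -0.59 to 0.46 on Control arrays. Fibroblast markers (8 of 8 tested, Lum called higher and Dpt lower) lay between 0.10 and 0.29 on hCG arrays, against -0.03 to 0.04 on Control arrays. Pericyte markers (5 of 7 tested, Rgs5 called) lay between 0.14 and 0.39 on hCG arrays, against -0.06 to 0.05 on Control arrays, with Cspg4 and Kcnj8 below the filter. Within that list Rgs5 (0.66) and Abcc9 (1.03, not called) averaged 2.47 and 2.59 on Control arrays, under the filter level, and were tested through their hCG arrays, while Notch3 and Des had changes of -0.17 and -0.31, so the list level rests on few dim genes. The 2 tested adipocyte markers, Fabp4 (called higher, and known from endothelium too) and Lpl, averaged 0.95 to 0.97 on hCG arrays, against -0.19 to 0.24 on Control arrays, while Adipoq, Plin1, Lep and Cidec lay below the filter. Fabp4 alone carried that level, with a change of 1.91 against 0.02 for Lpl (adjusted p = 0.906).

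Other marker lists were lower or overlapped. Luminal markers (9 of 10 tested, Cd24 called lower) lay between -0.70 and -0.38 on hCG arrays, against -0.75 to 0.60 on Control arrays. The 2 tested hormone-sensing markers, Areg and Fxyd2 (the second called lower), lay between -1.59 and -0.60 on hCG arrays, against -0.57 to 0.41 on Control arrays. Fxyd2 carried most of that level, with a change of -1.97. Areg had a change of -0.39 with overlapping groups (adjusted p = 0.564 by limma's test over all genes). Macrophage markers (4 of 8 tested, 0 called) lay between -0.53 and -0.10 on hCG arrays, against -0.21 to 0.29 on Control arrays, with Csf1r, C1qa, C1qb and Cd163 below the filter. Schwann and neural markers (4 of 8 tested, 0 called), of interest because Ptn and Sdc3 are well known from nerve, lay between -0.37 and -0.13 on hCG arrays, against -0.10 to 0.17 on Control arrays, with Gfap below the filter. Exact two-sided permutation p over the 18 lists was 0.1 or more, the smallest possible. The part of these cell types in the Ptn difference was not tested.

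Within the Control group, the order of Ptn (Control 5 lowest, Control 7 highest) was also that of the endothelial, basal, luminal, pericyte and adipocyte lists, 5 of the 9 marker lists. Within the hCG group Ptn spanned 1.21 log2 units, with hCG 6 lowest. The endothelial list was nearly level there, at 1.25 to 1.34 above the Control mean, and hCG 6 was its highest array. The hormone-sensing, macrophage and Schwann lists were also highest on hCG 6, whereas the fibroblast list was lowest there. The adipocyte list was almost level (0.97, 0.95 and 0.97 on hCG 5, 6 and 7), and neither Fabp4 nor Lpl was lowest on hCG 6. The fibroblast list had the hCG order of Ptn (0.29, 0.10 and 0.24 on hCG 5, 6 and 7). Among Control arrays it was highest on Control 5 (0.04), unlike Ptn. Sdc1, the epithelial syndecan, was also lowest on Control 5 and highest on Control 7, as were Ptn and the 5 lists with its Control order. That order was therefore not particular to the luminal list, and the hCG arrays of Sdc1 differed by only 0.05 log2 units.

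**Figure D5:**
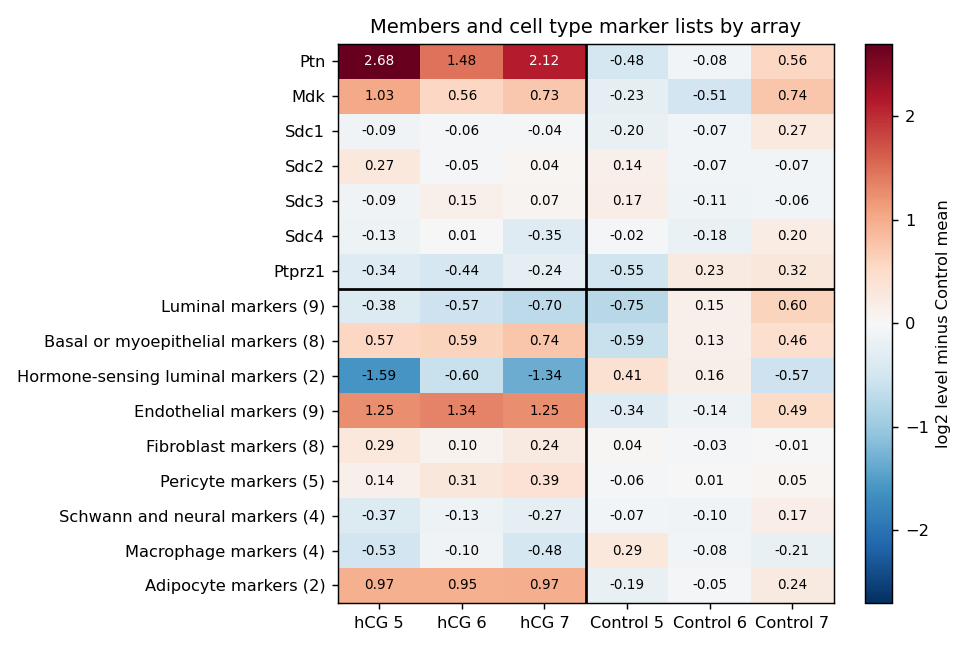
Level of each of the 7 genes (top) and of each cell type marker list (bottom, number of tested markers in brackets) on each array, as log2 value minus the Control mean, with hCG arrays on the left and Control arrays on the right of the vertical line. Ptn lies between 1.48 and 2.68 on hCG arrays and between -0.48 and 0.56 on Control arrays, and Control 7 stands above the other Control arrays in Mdk (0.74) and in the luminal (0.60) and endothelial (0.49) lists.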

How the data were processed

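The 6 arrays (3 hCG, 3 Control) came as the authors' deposited table of log2 expression, 31099 probe sets by 6 columns with 0 missing values. RMA, MAS5 and limma are listed, without version or role, per the submitters' processing notes. The log base and normalization are not given in the sources used here. The values and near-equal distributions fit log2 after normalization between arrays, which would hide a change shared by most genes. Precision is limited by having only 6 arrays (4 residual degrees of freedom).

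The 57 control probe sets and the dimmest 40% of the others were left out, which left 18625. Symbols came from the platform annotation (20826 probe sets with 1 gene, 436 with several, 9780 with none), updated by Entrez number from RefSeq. limma 3.58.1 in R 4.3.3 (lmFit and eBayes, no block, trend or robust setting, two-sided) was fitted to all tested probe sets, and Benjamini-Hochberg adjustment ran over the brightest tested probe set of each of 10424 genes. Pairs and lists were compared by exact permutation of the arrays (10 splits). The fit was tested on simulated data with independent errors drawn alike for all arrays, which does not cover arrays that stand apart.

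Named genes are the 7 members, the 4 of smallest p in each list of the pathway (0 were called), and the nearest in pattern, and 1 of these is not reported here. Alk, Nrp1, Ncl, Fyn and Sdcbp, and the cell type markers, were named beside these after their values were seen. The members and lists were chosen with earlier results of these data known. Alternatives were other filters on dim signal, other scalings (median centring, quantile, cyclic loess), other models (block on array number, array weights, trend, robust), other probe sets and each array left out. A pseudocount was not needed on log values. Whether array numbers pair the groups was not settled. Deviations from group means correlated at -0.16, 0.11 and 0.01 for numbers 5, 6 and 7. Between arrays of unlike number they correlated at -0.22 to 0.20.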

Additional observations from a re-analysis of the deposited data

How the results depend on the processing

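The count of called genes (190) was within 1.5 times of this value under 7 alternatives, from 159 with the dimmest 60% left out to 267 with no filter. It was 118 with the array number as a replicate block, 2663 with array weights and 306 with a variance trend, and from 0 to 584 with 1 array left out. Of the 7 members, 0 were called with the replicate block, 0 with the dimmest 60% left out, where Ptn, Sdc3 and Ptprz1 were not among the genes tested, 2 (Ptn and Mdk) with array weights, and from 0 to 2 with 1 array left out. With the block Ptn kept its change of 2.09 (adjusted p = 0.0674), and whether same-numbered arrays belong together was not settled. Of 639 alternative values for single genes, 578 kept direction and side of the threshold, 47 newly passed, 5 lost the call (all Ptn) and 9 turned sign. With array weights Sdc1 was 0.0508 in place of -0.06. As the mean of its probe sets Sdc2 was -0.0374, and at its other probe sets -0.1012 and -0.0997, in place of 0.09. At a dim probe set Sdc3 was -0.0426 in place of 0.04. With 1 array left out, the change ran from -0.1648 to 0.0727 for Sdc1, from -0.0041 to 0.1592 for Sdc2 and from -0.0124 to 0.1300 for Sdc3, which was also -0.0097 without hCG 6. Differences within arrays shifted by -0.324 to 0.0195 for Sdc1 minus Sdc2, by -0.2948 to 0.0620 for Sdc1 minus Sdc3, by -0.0170 to 0.1746 for Sdc1 minus Sdc4 and by -0.1114 to 0.1682 for Sdc2 minus Sdc3, the last at -0.0802 with the mean of probe sets. The mean level of the list of heparan sulfate linker and chain synthesis genes shifted by -0.1083 to 0.0035. With no filter on dim signal, the shift of the list of other receptors was 0.0050 and that of the chondroitin sulfate proteoglycans 0.0779, as more genes entered. The cause of the other turns of sign was not tested. Dim signal limits what can be read for Sdc3, Ptprz1 and the Control level of Ptn.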
